A study of Mus musculus with 22 samples.

Results

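The naive pluripotency transcription factors were read here as 10 genes taken by name: Nanog, Klf2, Klf4, Klf5, Esrrb, Tfcp2l1, Tbx3, Prdm14, Zfp42 and Nr5a2. All 10 were among the 18487 genes of the expression table, were above 0 in every library, and were among the 17275 genes tested. RNA-seq was made of poly(A) RNA from E14 cells, a line of mouse embryonic stem cells (ESCs). There were 22 libraries in 11 groups of 2, 1 group for each of 10 compounds and a group labelled NC, the only group whose label names no compound, which was used as the reference. Knockdowns are the subject of the study's text, which leaves these compounds out, and the labels give neither dose nor exposure time. Whether the 2 libraries of a group came from separate cultures is not stated, so the p-values measure only the spread between these libraries.

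All groups share the E14 background, a single line, and the study's methods describe ESCs kept in serum with LIF. Bromosporine is a broad bromodomain ligand, and Valproate inhibits histone deacetylases. CPTH2 and Garcinol are inhibitors of histone acetyltransferases. Chaetocin and UNC0379 inhibit lysine methyltransferases, UNC0379 with SETD8 as its target. MS023 acts on the type I arginine methyltransferases, and IOX1 on 2-oxoglutarate oxygenases such as the JmjC histone demethylases. DZNep inhibits S-adenosylhomocysteine hydrolase, and the product that then builds up inhibits methyltransferases. OICR is given in the labels by that name alone.

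Naive factors hold mouse ESCs in the state of the pre-implantation epiblast, on top of the core pair Pou5f1 and Sox2. They are fed by separate signals: LIF acts through JAK and STAT3 on Klf4 and Tfcp2l1, relief from the repressor TCF7L1 acts on Esrrb, Klf2 and Tfcp2l1, and Tbx3 lies upstream of Nanog. The network is redundant, since KLF2, KLF4 and KLF5 bind many of the same sites, and NANOG, ESRRB and NR5A2 can each stand in for other members in some settings. PRDM14 keeps FGF signalling and the de novo DNA methyltransferases low, and Zfp42, also known as Rex1, is the usual marker of the naive state.

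Promoter sequences were available for 7 of the 10 factors (Nanog, Klf2, Klf4, Esrrb, Tfcp2l1, Zfp42 and Nr5a2) in a RefSeq table of build GRCm38.p6. The 250 bases before the start of Nanog, Zfp42 and Tfcp2l1 are shown because they hold the letters that members of the network, or the core pair, bind. Capitals mark 2 motifs, each searched on both strands: CATTGT followed after 1 base by ATGCAAA, the joint SOX2 and POU5F1 element, and GGGNGTGG, a KLF box. The sequences run 5′ to 3′ on the strand of the gene.
Nanog, chr6:122707239-122707488, plus strand: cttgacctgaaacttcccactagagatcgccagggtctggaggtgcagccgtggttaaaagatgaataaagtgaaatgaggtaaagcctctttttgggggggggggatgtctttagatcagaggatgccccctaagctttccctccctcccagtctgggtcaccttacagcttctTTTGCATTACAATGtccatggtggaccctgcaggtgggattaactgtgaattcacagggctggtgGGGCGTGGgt
Zfp42, chr8:43307010-43307259, minus strand: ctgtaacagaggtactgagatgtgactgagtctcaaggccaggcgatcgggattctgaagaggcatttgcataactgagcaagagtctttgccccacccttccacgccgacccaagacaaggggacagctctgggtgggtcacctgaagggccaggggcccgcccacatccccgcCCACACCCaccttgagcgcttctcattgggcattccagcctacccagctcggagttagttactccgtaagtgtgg
Tfcp2l1, chr1:118627695-118627944, plus strand: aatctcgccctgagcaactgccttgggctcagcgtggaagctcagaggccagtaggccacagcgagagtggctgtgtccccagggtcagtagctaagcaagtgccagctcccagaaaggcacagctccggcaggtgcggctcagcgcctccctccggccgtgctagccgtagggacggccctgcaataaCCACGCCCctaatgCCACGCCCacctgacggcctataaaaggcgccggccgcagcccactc

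The exact letters given for the joint SOX2 and POU5F1 element were found in 2 of the 32851 promoter windows of this length (0.00609%). Both windows belonged to Nanog, whose 2 listed starts overlap, so that they hold the same site. Other spellings of the element were not searched, so the count does not say how common the element is. The match began at -75 from the start of the window printed above. The KLF box was common, in 15.9% of all windows. It was found in 4 of the 7 factors: Nanog (first base at -10), Zfp42 (-75), Tfcp2l1 (-61 and -47) and the second start of Nr5a2 (-157). The box TCAAGGTCA, read by ESRRB and NR5A2, was in 0.387% of windows and in 0 of the 7 factors, and the T-box AGGTGTGA was in 1.12% of windows and in 0 of 7. A pair of CCNG spaced by 6 bases, read by TFCP2L1, was in 24.9% of windows and in 2 of 7 factors (Klf2 and Esrrb). Nanog alone held both motifs of the printed set, and its matches did not overlap. A match describes the letters of the window, and no match says only that these letters are not in it.

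The factors lie on 7 chromosomes (mm10, GENCODE M21), all as protein coding genes. Nanog lies at 6:122707489-122714633, Tbx3 at 5:119670669-119684724, Zfp42 at 8:43295063-43306980 (minus strand) and Klf2 at 8:72319033-72321656. Tfcp2l1 lies at 1:118627945-118685168, and Klf5 at 14:99298691-99315036. Of the stretches of 31 bases in the longest coding transcript, 10.96% were shared with other genes for Nanog, mostly with Nanog-ps1, and 14.1% for Zfp42, mostly with Zfp42-ps1, and the other 8 factors shared 0 to 2.98%. The pseudogenes were not analysed here, and how reads that fit both copies were counted is not stated. Tbx3 overlaps the antisense gene Tbx3os1 and the use of strand in counting is not stated. Tbx3os1 was at 30 and 29 in NC and 68 and 56 with DZNep.

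Values are normalized read counts. Their distribution was the same in every library by construction, with a median of 409 and a highest value of 221616. The 10 highest genes of each library shared that highest value, and from rank 11 to 200 the values came in blocks of 10 genes that lay within 0.006 log2 of each other (median), with steps of 0.094 log2 between blocks (median). A value therefore mostly gives a position in a fixed series of values. Whether it is the rank by read count among all genes of the library, or among a subset of them, is not stated. An order of different genes by value need not be that of abundance. Differences in depth or in total RNA were not measurable. At the top of the table the steps were coarse. Nanog, which ranged between ranks 19 and 149 of these values, took 12 distinct values in the 22 libraries, with up to 0.42 log2 between neighbours. Esrrb and Tfcp2l1 took 9 distinct values each, and Klf4 took 22.

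Per kilobase of the longest coding transcript, the NC means were in the order Nanog (23564), Zfp42 (10134), Klf2 (9120), Esrrb (6438), Tfcp2l1 (4089), Klf5 (1708), Klf4 (1324), Tbx3 (1067), Prdm14 (938) and Nr5a2 (461). The markers of ESCs were high in all libraries, with normalized read counts of 25663 to 39262 for Pou5f1, 10935 to 18762 for Sox2 and 3961 to 5771 for Sall4, while Lin28a was lower (201 to 973). Some markers of other cell types were also read in NC. The summed normalized read count was 470 and 391 over 6 primitive endoderm markers. It was 3655 and 2924 over 7 trophoblast markers, of which Tfap2c gave 3379 and 2712. Over 4 neuroectoderm markers it was 3292 and 4950, of which Nes gave 1555 and 1613 and Tubb3 947 and 2771. Over 8 fibroblast markers it was 528 and 1397, with Postn at 474 and 559, Col3a1 at 4 and 743, and Lum and Dcn at 0. The 2 DZNep libraries stood apart from each other more than those of any other group, with a median absolute difference over the 10 factors of 0.66 log2, against 0.13 to 0.32 in the other 10 groups. For all genes tested the DZNep libraries differed by 0.37, against 0.22 (Bromosporine) to 0.36 (Valproate) in the other 10 groups.

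**Figure D1:**
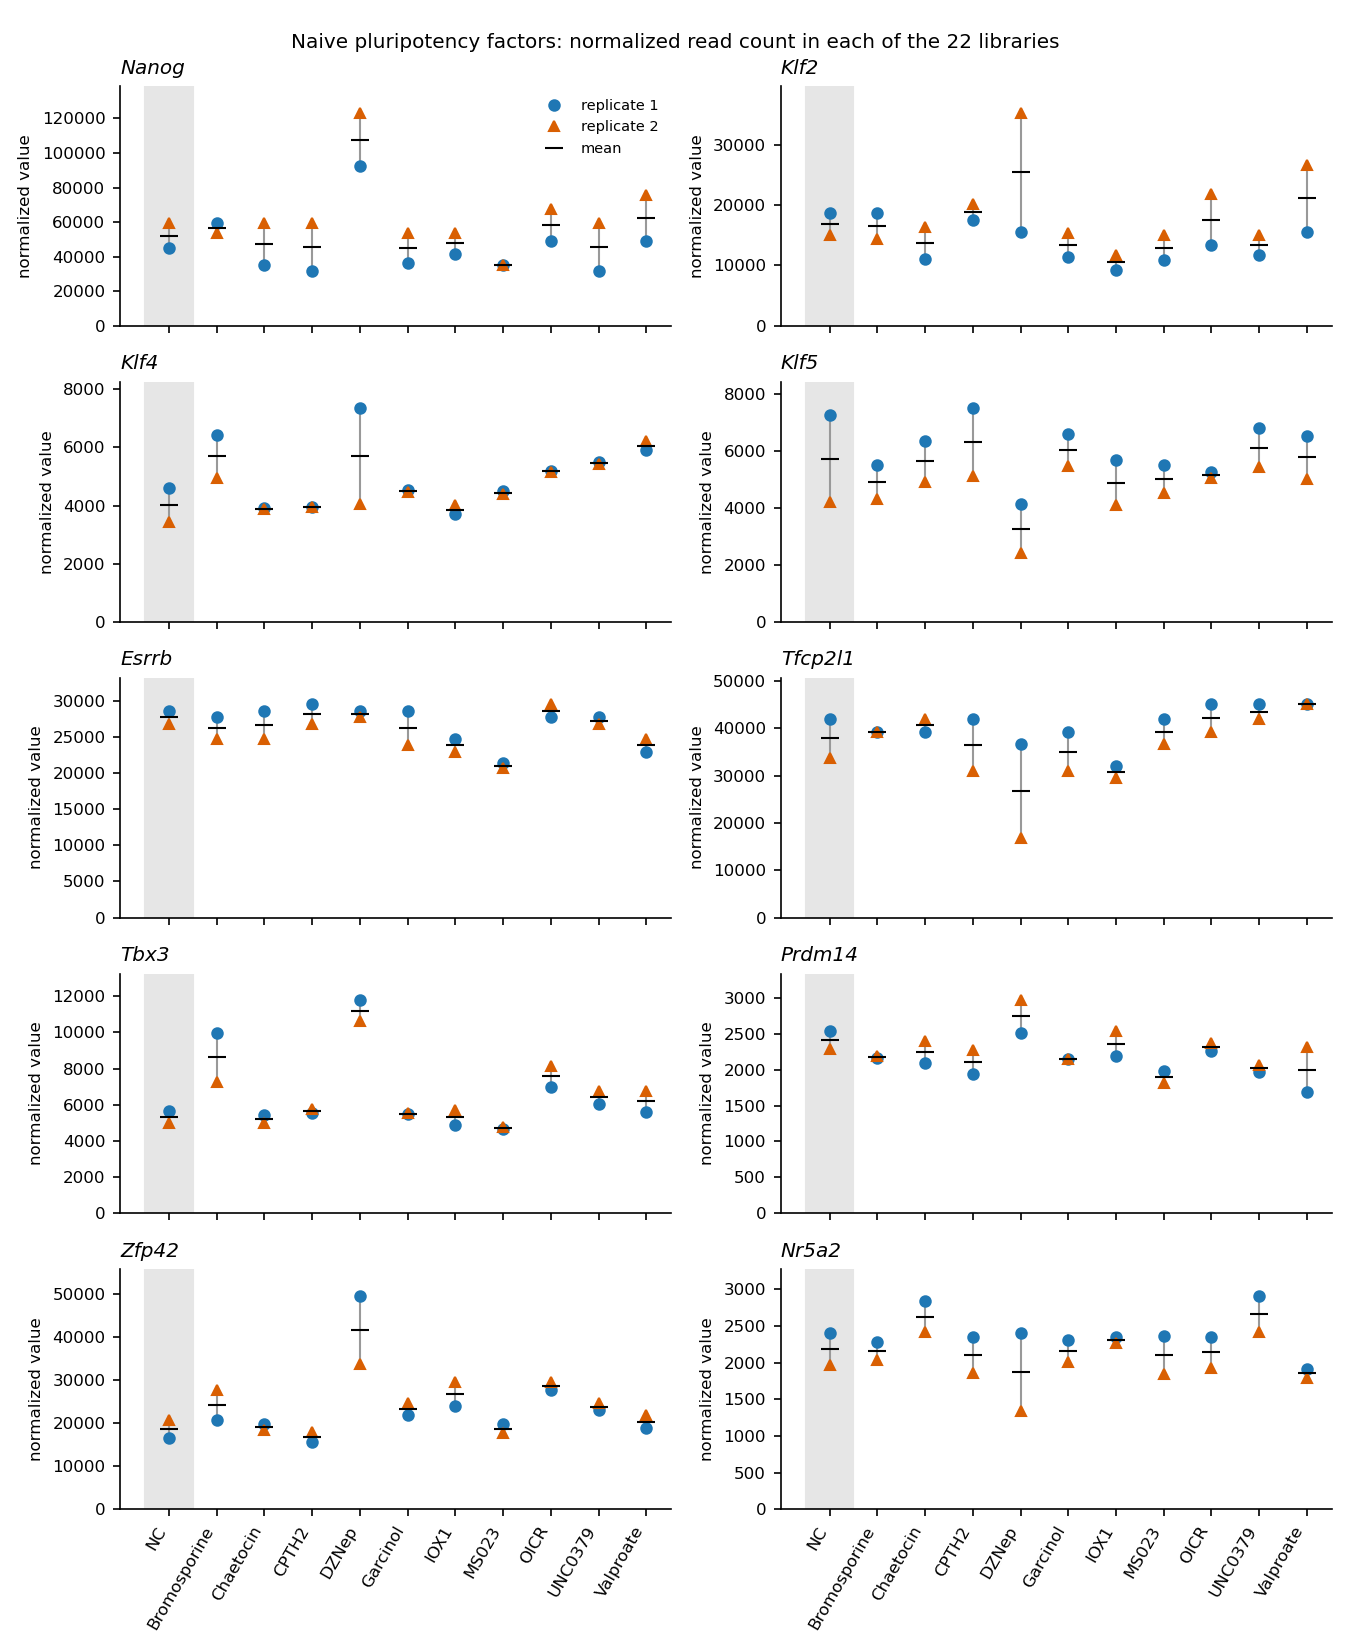
Normalized read count (vertical axes, linear, from 0) of each of the 10 factors in every library, by group (horizontal axis). Circles are replicate 1, triangles replicate 2 and bars the mean of the 2, and the NC group is shaded; the DZNep libraries of Nanog (92251 and 123367), Tbx3 (11776 and 10616) and Zfp42 (49540 and 33822) lie above every other library.

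The question of which factors changed with each compound was asked with a limma fit to log2(value + 1) of all 22 libraries. A call needed both a limma adjusted p (Benjamini-Hochberg) below 0.05 and more than a 2-fold difference. DZNep was the only compound with a call: Tbx3 and Zfp42 rose, 2 of 10 factors, against 11.4% of all genes tested that were called in either direction and 5.27% that were called as higher. By adjusted p alone DZNep again had 2 of the 10, beside 23.6% of all genes. The other 8 factors did not pass the test with DZNep, and their values had both signs, from 1.05 log2 for Nanog to -0.81 for Klf5. The median change of the 10 factors was 0.32 log2, beside -0.036 for all genes tested. At an unadjusted p under 0.05 there were 6 factors (Tbx3, Zfp42, Nanog, Klf5, Klf4 and Tfcp2l1), beside 35.4% of all genes tested. Fewer cells of a state and less RNA per cell cannot be told apart in bulk RNA, and this holds for all of the differences given here.

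**Figure D2:**
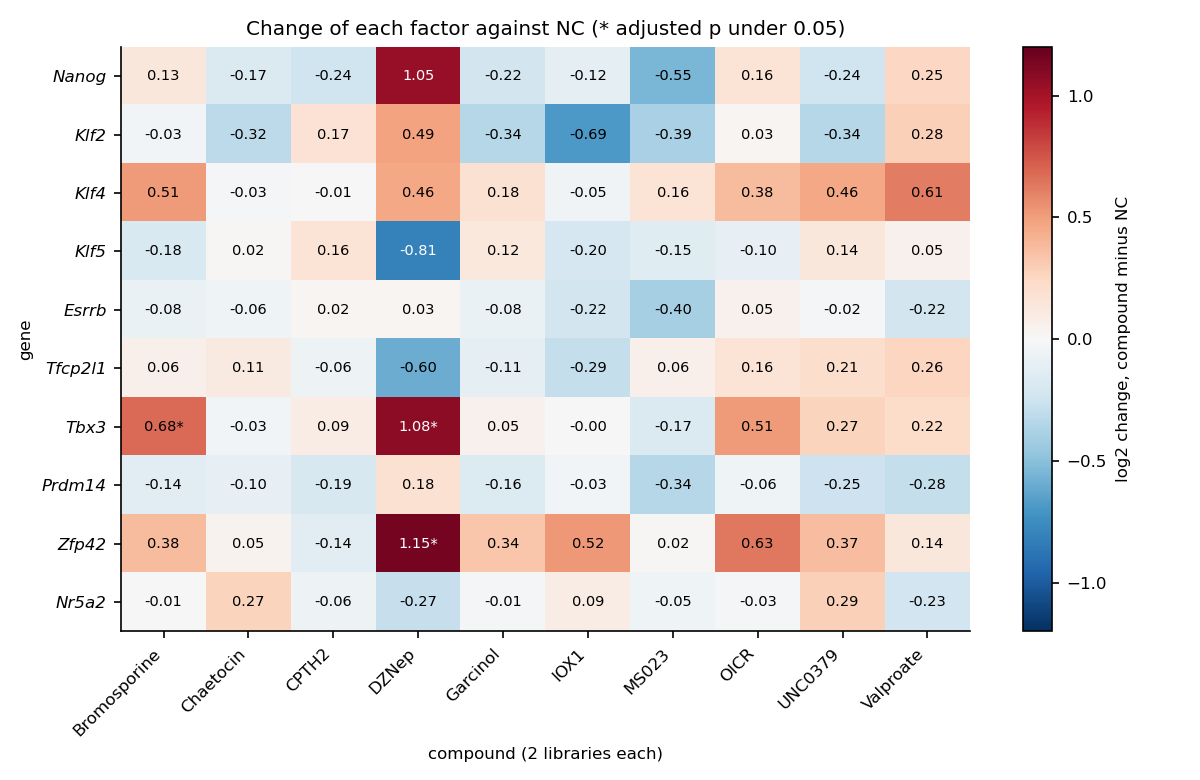
Log2 change against NC (colour and printed number) for each factor (rows) and compound (columns), each from 2 libraries against the same 2 NC libraries. An asterisk marks an adjusted p under 0.05, found for Tbx3 with DZNep (1.08) and Bromosporine (0.68) and for Zfp42 with DZNep (1.15).

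Tbx3, a T-box factor, had the clearest difference. It was at 5662 and 4970 in the NC libraries and at 11776 and 10616 with DZNep, so the groups did not overlap. The 18 libraries of the other compounds lay between 4685 (MS023) and 9979 (Bromosporine), all below DZNep. Tbx3 rose 2.11-fold with DZNep (log2 change 1.08, SE 0.15, limma adjusted p = 0.000231), by 1.06 within replicate number 1 and 1.10 within number 2. With Bromosporine it was at 9979 and 7260, also above both NC libraries, a change of 0.68 log2 (SE 0.15, 1.60-fold, limma adjusted p = 0.0174). That change passed the adjusted p, as for 5.40% of all genes with this compound, but not the fold, so it was not called. Between DZNep and Bromosporine, Tbx3 differed by 0.39 log2 (limma adjusted p = 0.0638). The call with DZNep was lost when only the 4 libraries of DZNep and NC were fitted (limma adjusted p = 0.075), and leaving out NC replicate 2 took the change to 0.98, just under the fold.

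Zfp42, the zinc finger gene used as a naive marker, was at 16469 and 20763 in NC. Its DZNep libraries were at 49540 and 33822, more than any other library. The next highest value was 29523, which was reached with IOX1 and OICR. The rise with DZNep was 2.21-fold (log2 change 1.15, SE 0.19, limma adjusted p = 0.000883), and it was uneven, at 1.59 within replicate number 1 and 0.70 within number 2. Without DZNep replicate 1 the change was 0.87, and without NC replicate 1 it was 0.98, both under the fold, and in the fit of 4 libraries the limma adjusted p was 0.128. Zfp42 was also above both NC libraries with OICR (27768 and 29523, log2 change 0.63, limma adjusted p = 0.198) and with IOX1 (23885 and 29523, log2 change 0.52, limma adjusted p = 0.285), neither past the threshold.

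Nanog, the homeobox factor whose level varies from cell to cell in serum, was at 44793 and 59405 in NC. With DZNep it was at 92251 and 123367, above all of the other 20 libraries, which reached 75957 at most. The change was 1.05 log2 (SE 0.37, 95% interval 0.25 to 1.85, 2.07-fold) and missed the threshold (limma adjusted p = 0.0574), although it was near equal within the replicate numbers, at 1.04 and 1.05. In blocks of 10 genes from the top, Nanog stood in blocks 9 and 6 in NC and in blocks 3 and 2 with DZNep, where a step of 1 block was up to 0.42 log2. The lowest mean was with MS023, at 35221 in both libraries, 0.55 log2 below NC (limma adjusted p = 0.548). Nanog passed both thresholds with DZNep after median-ratio rescaling of the libraries (limma adjusted p = 0.0385) and with the average of the 10 groups other than DZNep as the reference (limma adjusted p = 0.00595).

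None of the 3 Krüppel-like factors was called against NC, and with DZNep their values had both signs. Klf5 was at 7245 and 4206 in NC. With DZNep it was at 4131 and 2409, both under the lower NC library. The 18 libraries of the other compounds lay between 4084 and 7486. Its change with DZNep was -0.81 log2 (SE 0.31, limma adjusted p = 0.0735), at -0.81 and -0.80 within the replicate numbers, and it did not pass. Leaving out a single library moved it from -1.199 (without NC replicate 2) to -0.41 (without NC replicate 1), with calls without NC replicate 2 and without DZNep replicate 1.

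Klf2 had the widest gap between the libraries of a group, at 15567 and 35296 with DZNep beside 18718 and 14970 in NC. Its change with DZNep was 0.49 log2 (limma adjusted p = 0.385), at -0.27 within replicate number 1 and 1.24 within number 2. The lowest values were with IOX1, at 9169 and 11808, both under NC, a change of -0.69 log2 (limma adjusted p = 0.494). Klf4, a target of STAT3, ranged from 3429 to 7340 over all libraries, its lowest in NC and its highest with DZNep. With Valproate it was at 5910 and 6208, above both NC libraries (4590 and 3429), a change of 0.61 log2 that missed the threshold (limma adjusted p = 0.0826). With Bromosporine it was also above NC, by 0.51 log2 (limma adjusted p = 0.195).

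Tfcp2l1, which like Klf4 is a target of STAT3, was at 41969 and 33833 in NC. With DZNep it was at 36715 and 16883, the second of which was the lowest of all 22 libraries. The change was -0.60 log2 (limma adjusted p = 0.127), and it came mostly from the second library, at -0.19 within replicate number 1 and -1.003 within number 2. Without DZNep replicate 1 it was -1.16 and was called (limma adjusted p = 0.00207), and without DZNep replicate 2 it was -0.04 (limma adjusted p = 0.925).

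Esrrb and Nr5a2 encode orphan nuclear receptors with a shared binding site, and Prdm14 a PR domain protein, and none of the 3 was called in any comparison against NC. Esrrb was the steadiest of the 10 factors, from 20744 to 29497 in all libraries, with a range over group means of 0.44 log2 that lay at the 10.3 percentile of all genes tested. Both MS023 libraries (21314 and 20744) were the lowest of all, a change of -0.40 log2 (SE 0.11, 95% interval -0.64 to -0.15) at a limma adjusted p of 0.0974. With DZNep its change was 0.03 log2, with an interval of -0.21 to 0.27. Prdm14 ranged from 1685 to 2965, with its highest library under DZNep, and its lowest mean was with MS023 (1982 and 1810, log2 change -0.34, limma adjusted p = 0.275). Nr5a2 ranged from 1337 to 2910, and its changes lay between -0.27 (DZNep) and 0.29 (UNC0379), with no adjusted p under 0.424.

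**Figure D3:**
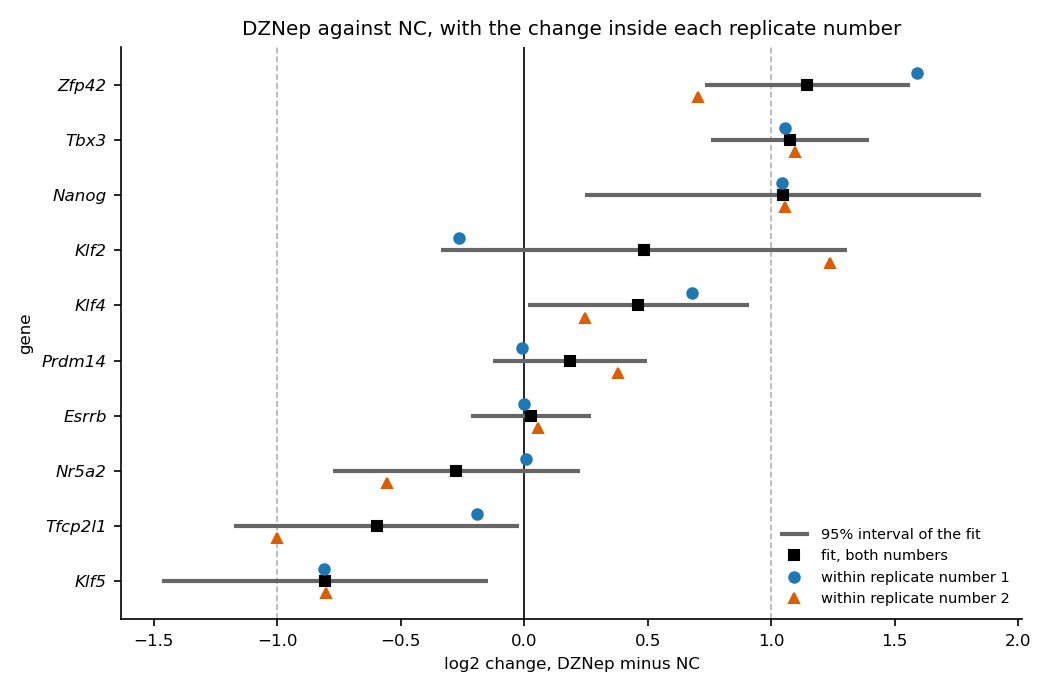
Log2 change of each factor (rows) with DZNep against NC (horizontal axis). Squares with bars are the fit with its 95% interval, circles and triangles the difference within replicate numbers 1 and 2, and dashed lines mark a 2-fold change; Tbx3, Nanog and Klf5 had near equal values in both numbers, and Klf2 and Tfcp2l1 did not.

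Within replicate numbers, 6 of the 10 factors had the same sign with DZNep in both, as many as with IOX1, OICR, UNC0379 and Valproate. The 2 DZNep libraries lay beyond both NC libraries for 4 factors, higher for 3 and lower for 1, beside 58.9% of all genes tested.

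With the other 9 compounds, 0 of the 10 factors were called by limma. The share of all genes called was 3.34% with Bromosporine, 0.0174% with Chaetocin, 0.00579% with CPTH2, 0.00579% with Garcinol and 0.116% with IOX1. It was 0.973% with MS023, 0.388% with OICR, 0% with UNC0379 and 5.28% with Valproate, so that with most of these compounds few calls were made anywhere. At an unadjusted p under 0.05 there were 2 factors with Bromosporine (Tbx3 and Klf4), beside 19% of all genes tested. MS023 had 2 (Esrrb and Prdm14, beside 15%) and OICR had 2 (Tbx3 and Zfp42, beside 10.7%). IOX1 (Zfp42, beside 12.4%), UNC0379 (Klf4, 6.08%) and Valproate (Klf4, 24.1%) had 1 each. There were 0 with Chaetocin (4.72%), CPTH2 (0.944%) and Garcinol (3.62%). Of the 100 pairs of factor and compound, 87 had a change under 0.5 log2 in size and 3 had one over 1, all with DZNep, and the sign was the same within both replicate numbers in 49.

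The median change of the 10 factors lay between -0.16 (MS023) and 0.18 (Valproate) over these 9 compounds, beside -0.028 to 0.007 for all genes tested. After median-ratio rescaling of the libraries the medians moved by under 0.05, and those of Bromosporine (0.03 to -0.005) and Chaetocin (-0.03 to 0.01) changed sign. The 10 comparisons share the NC libraries, so a high or low NC value moves all of them: Zfp42 was above NC in 9 of 10 and Prdm14 in 1 of 10.

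Taking no group as the reference, a moderated F test over the 11 groups called 2 of the 10 factors, beside 20.4% of all genes tested. These were Tbx3, with 1.25 log2 between its lowest group (MS023) and its highest (DZNep, limma adjusted p = 0.000748), and Zfp42, with 1.29 log2 between CPTH2 and DZNep (limma adjusted p = 0.00566). Nanog had the widest range, 1.60 log2 from MS023 to DZNep, with a limma adjusted p of 0.138. The other 7 factors had ranges of 0.44 to 1.17 log2 and limma adjusted p-values of 0.0902 to 0.541.

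Of the 55 direct contrasts between groups, those with a called factor all had DZNep on one side. Nanog was called against 6 compounds: it was higher with DZNep by 1.60 log2 than with MS023 (limma adjusted p = 0.00754), by 1.29 than with CPTH2 (0.0227) and UNC0379 (0.0275), by 1.27 than with Garcinol (0.0277), by 1.22 than with Chaetocin (0.0293) and by 1.17 than with IOX1 (0.0369). Tbx3 was called against Chaetocin, Garcinol, IOX1 and MS023, the last by 1.25 log2 (limma adjusted p = 8e-05). Zfp42 was called against Chaetocin, CPTH2, MS023 and Valproate, by 1.01 to 1.29 log2, and Klf2 against IOX1 alone, by 1.17 log2 (limma adjusted p = 0.0402). Klf4, Klf5, Esrrb, Tfcp2l1, Prdm14 and Nr5a2 were called in 0 of the 55, Klf5 with a range of 0.97 log2 that is under the fold.

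Called factors numbered 3 of 10 for DZNep against Chaetocin, beside 12.3% of all genes, 3 against IOX1 (11.7%) and 3 against MS023 (10.9%). They numbered 2 against CPTH2 (11.4%), 2 against Garcinol (10.5%), 1 against UNC0379 (9.17%) and 1 against Valproate (10.8%). These contrasts share the DZNep libraries. Groups were also placed in order of their own means for each factor, so that neighbours are the closest groups. Of 100 neighbouring pairs over the 10 factors, 0 had a limma adjusted p under 0.05, and in 90 the libraries overlapped. Since the ordering picks the smallest gaps, these counts do not show that the groups are alike. They were not made for all genes. The gap between DZNep and its neighbour was the widest of the order for several factors. At the top it was 0.80 log2 for Nanog (Valproate, limma adjusted p = 0.144), 0.52 for Zfp42 (OICR, 0.0868), 0.39 for Tbx3 (Bromosporine, 0.0638) and 0.18 for Prdm14 (NC, 0.385). At the bottom it was 0.61 for Klf5 (IOX1, limma adjusted p = 0.172) and 0.31 for Tfcp2l1 (IOX1, 0.445).

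The libraries of every group are numbered 1 and 2, and the labels do not say what the number marks. Several factors moved with it. Nanog was higher in replicate 2 in 9 of 11 groups, by 0.48 log2 on average (limma adjusted p = 0.000899), and Klf2 in 9 of 11, by 0.40 (0.0161). Klf5 was lower in replicate 2 in all 11 groups, with a mean difference of -0.42 log2 (limma adjusted p = 0.00016), and so was Nr5a2, with -0.29 (0.00153). Tfcp2l1 had a mean difference of -0.25 log2 (limma adjusted p = 0.0361), with replicate 2 higher in 1 group and equal in 2. Tbx3 (0.01), Zfp42 (0.09), Esrrb (-0.08), Prdm14 (0.11) and Klf4 (-0.14) did not pass, with limma adjusted p-values of 0.0833 to 0.945. An adjusted p under 0.05 was reached by 5 of 10 factors and by 52.6% of all genes, and 0 of 10 also passed the fold, against 4.04% of all genes. All groups hold 1 library of each number, so the number does not coincide with a compound. The fit used for the calls against NC leaves the number out, so its spread includes these differences.

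**Figure D4:**
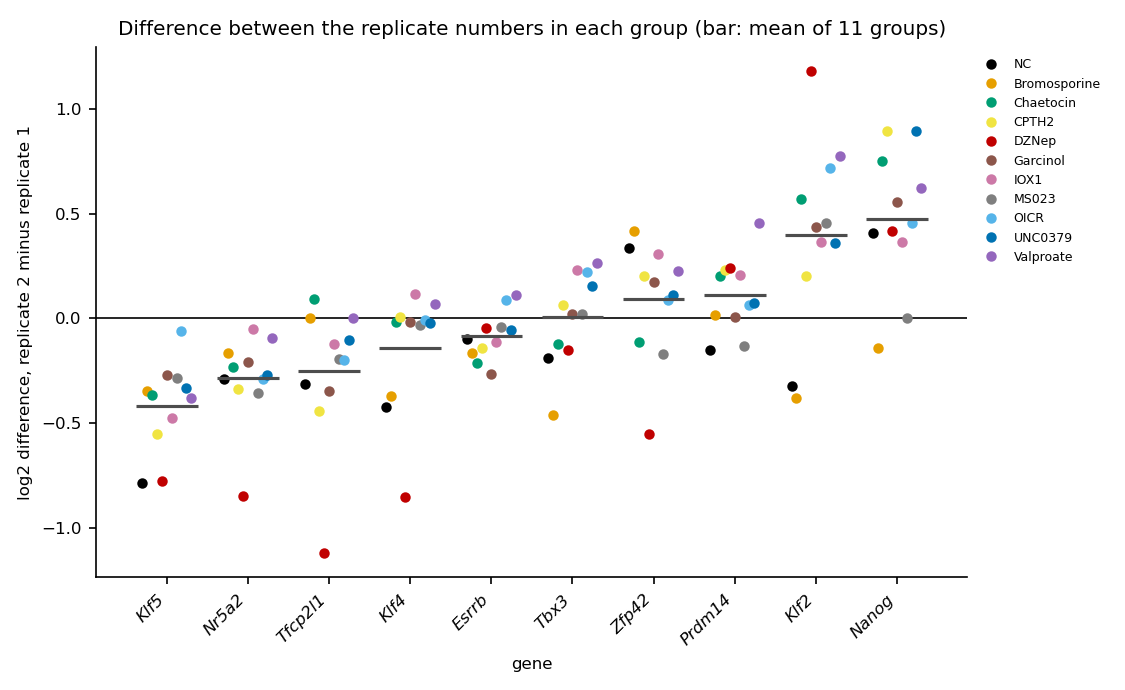
Log2 difference of replicate 2 minus replicate 1 (vertical axis) for each factor (horizontal axis, in order of the mean) in each of the 11 groups (coloured points). Horizontal bars are the mean of the groups; all points of Klf5 and Nr5a2 lie below 0, and the widest are those of DZNep for Klf2 (1.18) and Tfcp2l1 (-1.12).

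How the factors varied with each other was described by Pearson's r of log2(value + 1) over the 11 group means, in which the DZNep group is 1 point that stands far from the others. Of 45 pairs of factors, 25 were positive, with a median r of 0.20. Nanog, Tbx3 and Zfp42 were high together (Nanog and Tbx3 0.87, Tbx3 and Zfp42 0.81, Nanog and Zfp42 0.77). Klf5 and Tfcp2l1 went together (0.75) and against the first 3: Klf5 was at -0.80 with Zfp42 and -0.77 with Nanog. Over the 22 libraries, with the mean of each replicate number taken out, these values were 0.83, 0.72, 0.66, 0.70, -0.67 and -0.68 in the same order. The points share the normalization and the NC and DZNep libraries.

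**Figure D5:**
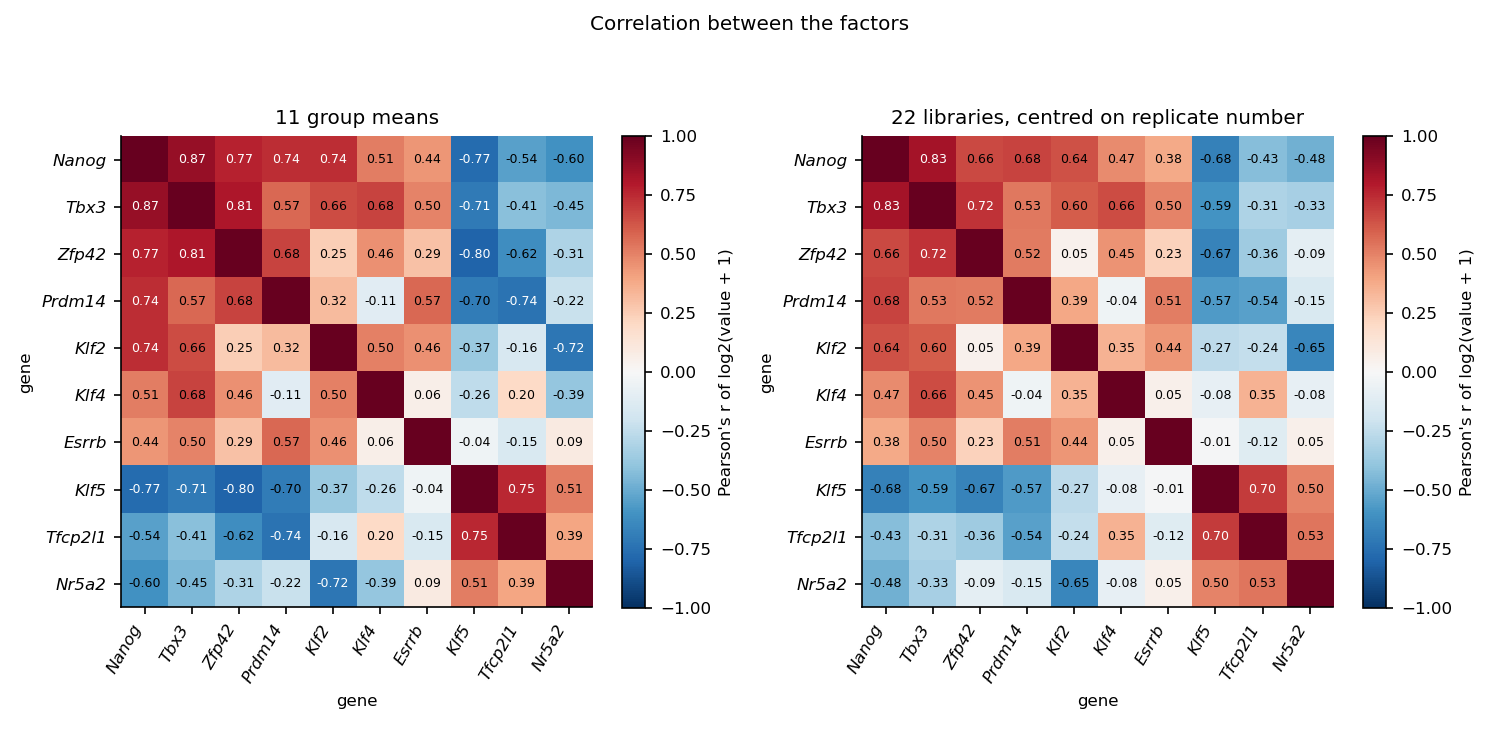
Pearson's r between the factors (both axes) over the 11 group means (left) and over the 22 libraries after the mean of each replicate number was taken out (right), as colour and number. Nanog, Tbx3 and Zfp42 form a positive corner (0.77 to 0.87 on the left), and Klf5 and Tfcp2l1 a second one (0.75).

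Among all other genes that were above 0 in every library with a mean of at least 100 (12589 genes), the group means of Nanog were most like those of Adat2 (r = 0.974), Tmem115 (0.968) and Mthfd1 (0.951). Those of Tbx3 were most like Akap2 (0.972), those of Zfp42 like Med18 and 2310036O22Rik (0.973 each), those of Klf2 like Kdm1a (0.982), those of Klf5 like Kdelr3 (0.975) and those of Esrrb like Lig1 (0.973). The highest r was lower for Klf4 (Nol9, 0.929), Prdm14 (Naa10, 0.933), Tfcp2l1 (Ap4e1, 0.923) and Nr5a2 (Zbtb14, 0.917). These are the largest of many values over 11 points.

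The other genes of the network were read as lists with the same calls. In the LIF list (11 genes tested), the ligand and the brake moved apart with DZNep: Lif was at 321 and 351 in NC and 1038 and 741 with DZNep, and rose by 1.38 log2 (limma adjusted p = 0.00357), while Socs3, the feedback inhibitor, was at 5456 and 3689 and then 2345 and 2070, and decreased by 1.03 log2 (limma adjusted p = 0.0192). Pim1, Il6st, Ptpn11, Pim3, Jak1, Tyk2 and Jak2 had changes of -0.97 to -0.34 log2 with limma adjusted p-values of 0.00175 to 0.0434, under the fold. Stat3 itself was at 6305 and 5670 in NC and 5532 and 5415 with DZNep. The list had 1 call up and 1 down of 11 with DZNep, beside 11.4% of all genes, a median of -0.46 log2, and 0 calls with Bromosporine, OICR and Valproate. Of the 8 genes of the WNT and TCF list (Tcf7l1, Gsk3b, Ctnnb1 and others), 0 were called with these 4 compounds, and the median with DZNep was 0.05 log2.

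Of the 12 core pluripotency genes tested, 2 were called as higher with each of Bromosporine, DZNep and OICR, and these were Utf1 and Foxd3 each time. The share of all genes called was 3.34% with Bromosporine, 11.4% with DZNep (5.27% as higher), 0.388% with OICR and 5.28% with Valproate. Utf1, a chromatin factor of ESCs, was at 1283 and 1467 in NC, 4622 and 5749 with DZNep (log2 change 1.91), and 3558 and 3309 with Valproate (1.32), where it was the only core call. Foxd3, a forkhead factor, was at 773 and 811 in NC and 3607 and 3335 with DZNep (log2 change 2.13). Of the 12 other naive genes, Tdh, the threonine dehydrogenase of mouse ESCs, rose with DZNep (1.07) and OICR (1.13). With Valproate, Dppa3 rose by 4.18 log2, from 194 and 160 to 3544 and 2894, and Nr0b1 decreased by 1.45 log2. All of these had limma adjusted p-values under 0.05. The median change of the 12 other naive genes was -0.22 log2 with DZNep, -0.09 with OICR and -0.15 with Valproate. With DZNep, Alpl (-0.63 log2), Nr0b1 (-0.77) and Fgf4 (-0.57) were lower but under the fold, at limma adjusted p-values of 0.00176 to 0.0267.

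Of the 12 genes of the formative and primed states, Pim2 rose with Bromosporine (1.14 log2). Pim2 (1.198) and Lef1 (1.33) rose and Tcf15 decreased by 1.14 log2 with DZNep, the list's median being -0.41. With Valproate Lef1 rose by 2.86 log2, and Etv4 (-3.997) and Otx2 (-1.499) fell, with a list median of 0.62. Of the 8 regulators of the exit from the naive state, Jarid2 rose with DZNep (1.03 log2). Among 18 tested paralogs of the factors, Tbx4 rose by 1.73 log2 and Klf12 and Klf10 decreased by 1.21 log2 and 1.02 log2 with DZNep, and Klf12 decreased by 1.25 log2 with Valproate. In all, 1970 genes were called with DZNep, 11.4% of those tested, beside 3.34% with Bromosporine and 5.28% with Valproate.

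Markers of other cell types also moved with DZNep, with which 11.4% of all genes were called, 5.27% as higher. The 6 primitive endoderm markers in the table summed to 503 and 829, against 470 and 391 in NC and 229 to 640 in the other groups, with Pdgfra and Dab2 called as higher and Gata4 as lower (156 and 154 in NC, 35 and 61 with DZNep). Of the 7 trophoblast markers tested, 3 were called as higher (Ascl2, Gata3 and Eomes), while Cdx2 stayed between 2 and 24 in all libraries. Of the 7 fibroblast markers tested, 2 were called as higher, Col1a1 from 24 and 24 to 327 and 228 and Thy1 from 12 and 11 to 66 and 64. The fibroblast list summed to 1613 and 1881 with DZNep, and to 27 to 1559 in the other groups, with Dcn at 0 in all 22 libraries. Of the 4 neuroectoderm markers tested, Sox1 and Nes were called as lower (-1.52 and -1.34 log2), and the list summed to 4286 and 5119. Tubb3, in the same list, had its highest value of the 22 libraries, 4333, in DZNep replicate 2.

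Such markers also moved with other compounds in which no naive factor was called. With Valproate (5.28% of all genes called), Thy1 was called as higher, at 358 and 303, and so was Pdgfra, at 88 and 78. Lum, listed at 0 in NC, was called as higher at 197 and 331. The highest Lum value of the 22 libraries, 346, was in CPTH2 replicate 1, and the median was 0. Sox1 was called as lower with Valproate (-1.21 log2). With Bromosporine (3.34%), Eomes was called as higher (1.33 log2) and Col1a1 as lower (-1.74 log2), and Hand1, Zscan4c and Zscan4d, at 0 in both libraries, were also called as lower. The 8 markers of the 2-cell stage summed to 5 and 9 with Bromosporine, against 211 and 171 in NC. Zscan4d was also at 0 and called as lower with OICR, and Sox1 was called as lower with MS023 (-1.37 log2). The 4 mesoderm markers in the table summed to 137 to 329 in all libraries. The part of these cells or states in the differences was not tested.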

How the data were processed

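Poly(A) RNA-seq of 22 E14 libraries was grouped by the sample titles and treatment labels. The authors deposited scores: read counts per gene that were normalized and then rounded. Per the study's methods, which do not mention the compounds, and the submitters' processing notes, the authors aligned reads with Bowtie2 2.2.5 to an Ensembl 81 transcriptome index (mm10), counted them with RSEM and then applied full-quantile normalization in EDASeq, which forces 1 distribution on all libraries. The authors also removed outlying samples. A second table of the authors' group means differed by 0 from the means of the first and was not used further. Depth per library is not known, so no counting interval was given. The study's DESeq2 test works on raw counts, so it was not used on these values.

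Values were fitted as log2(value + 1) with limma 3.58.1 (trend, 11 group means, 11 residual degrees of freedom) in R 4.3.3, for genes at 10 or more in at least 2 libraries (17275 of 18487). P-values are two-sided and adjusted by Benjamini-Hochberg within each contrast, and calls need an adjusted p under 0.05 and a fold over 2. The factors, the other lists and the tests were chosen with earlier results of these data known. Values in every library are given for factors called in a contrast or under an alternative, and the others by their range. For the other lists, the called genes are named, at most 4 per list and compound. The genes named as most like a factor are the leading ones, from up to 3 per factor, by Pearson's r. LIF genes and other naive genes under the fold were named after their values were seen. The fit was tested on simulated data. Annotation came from GENCODE M21 (17946 of 18487 symbols matched), and promoters from RefSeq. Python 3.11.15 was used for the rest. Alternatives changed the pseudocount, filter, scaling, reference, libraries, adjustment and replicate block.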

Additional observations from a re-analysis of the deposited data

How the results depend on the processing

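With DZNep, 2 factors were called against NC (Tbx3 and Zfp42), and 2 again with a pseudocount of 10, with no filter on low values and with adjustment over all 10 contrasts. Set against the average of the 10 groups other than DZNep, the count was 1 (Nanog, with Tbx3 at 0.91 log2 and Zfp42 at 0.92, under the fold), and with only the 4 libraries of DZNep and NC it was 0. Leaving out 1 library at a time gave 1 to 3: Tbx3 without NC replicate 1, Klf5 and Zfp42 without NC replicate 2, Klf5, Tfcp2l1 and Tbx3 without DZNep replicate 1, and Tbx3 and Zfp42 without DZNep replicate 2. Median-ratio rescaling gave 3, with Nanog added. Whether the replicate numbers pair the libraries is not stated in the labels. The correlation of same-numbered deviations was 0.0535 to 0.298 (median 0.196) over the 55 pairs of groups, over 0.1 in 51. With the number as a replicate block, 3 factors were called with DZNep (Nanog added, limma adjusted p = 0.00196) and 2606 genes in all, against 1970 without it. In that fit Klf5 (limma adjusted p = 0.000769, SE 0.14) and Tfcp2l1 (0.0393) also passed the adjusted p with DZNep, but not the fold. So did Esrrb with MS023 (limma adjusted p = 0.0173), Klf4 with Valproate (0.03) and Tbx3 with Bromosporine (0.00792). Over 11 alternatives the limma adjusted p was 4.26e-05 to 0.075 for Tbx3, 0.000306 to 0.128 for Zfp42 and 0.00196 to 0.278 for Nanog. For the other 9 compounds the count was 0 under all 11 alternatives, and for replicate 2 against 1 it was 0 under each one run. The F test over groups called 2, and 3 with the block (Nanog added) and without DZNep replicate 1 (Tfcp2l1 added). The changes of Tbx3, Zfp42, Nanog, Klf5 and Tfcp2l1 with DZNep were followed under the alternatives, and none of them changed sign. The changes of the other factors, and those with the other compounds, were followed only as calls and with the replicate block. The medians of the 10 factors with Bromosporine and Chaetocin changed sign after rescaling. Apart from what each setting removes, the cause of these moves was not tested. The unknown depth and the forced distribution limit what small changes can show.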

Other observations

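Rex2, a zinc finger gene outside the lists that was looked at after its values were seen, was uneven in the same group as Klf2 and Tfcp2l1: the NC libraries were at 1354 and 905, and DZNep gave 7114 and 1419, within a range of 616 to 9098 over the 22 libraries.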
